A study of Mus musculus with 4 samples.

Results

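Mouse embryonic stem cells carrying active Akt were compared with control cells after 4 days without leukemia inhibitory factor (LIF). The comparison rests on 2 of the 4 arrays of the series, 1 array of each cell line, and it was read across 8251 genes. Both lines are E14tg2a, a mouse embryonic stem cell line grown here without a feeder layer. The line called Akt cells expresses constitutively active Akt, a kinase, and is titled Akt12, and the other line is titled control. The remaining 2 arrays hold the same lines cultured with 3000 U/ml LIF. The labels do not say which Akt gene or species the active form comes from, what promoter drives it, whether an empty vector is present in the control cells, or whether 12 numbers a clone. If Akt12 is a single clone, a difference of that clone from the control line cannot be told apart from a difference due to Akt. With 1 array a side, nothing within the comparison could be tested, and each difference below is a difference between those arrays.

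In culture, undifferentiated mouse embryonic stem cells are maintained by LIF, a cytokine of the interleukin 6 family. It acts through its receptor and Janus kinases on the transcription factor STAT3, and it also feeds into phosphoinositide 3-kinase (PI3K). PI3K makes the membrane lipid that recruits Akt, and active Akt phosphorylates GSK3, TSC2 and the FOXO transcription factors, which are then kept out of the nucleus. Mouse embryonic stem cells deprived of LIF for days leave the undifferentiated state and take on features of several lineages.

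Values are array intensities after quantile normalization of the 4 arrays, on a linear scale. An intensity of 15.8, the 40th percentile of all values, served as a floor under which no order was read. Where 1 of the arrays compared was at the floor, the fold is a lower limit and is given as "at least". Between 5625 and 5659 genes lay above the floor on each array. The deposited intensities had 2% trimmed means from 80.3 to 121, the Akt array without LIF being the dimmest. Across the 5027 genes that cleared the floor on every array, the control array without LIF lay furthest from the others, with an SD of log2 differences of 0.71 to 0.87 against 0.41 to 0.53 among the other 3. Every difference without LIF below rests on that array. The actin 3' to 5' signal ratio, which rises as RNA degrades or labelling shortens, without LIF was 1.66 for control and 2.48 for Akt cells, and 2.33 and 3.04 with LIF. The Gapdh ratio was 3.19 and 2.46 without LIF. The part of RNA quality in the results was not tested.

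The labels were checked against marker genes. All 10 embryonic stem cell markers were above the floor on every array, and without LIF they summed to an intensity of 4109 in control cells and 7670 in Akt cells, against 10857 and 11654 with LIF. Of 7 fibroblast or feeder markers, 6 were above the floor in control cells without LIF and 3 in Akt cells, with summed intensities of 563 and 279. Of 4 blood markers, Ptprc and Cd3e were at the floor throughout. Cd68 was higher in Akt cells, at 30.1 in control and 57.1 in Akt cells without LIF and 34.5 and 110 with it. Hba-a1 stood at 19.2 and 34.8 without LIF and 20.8 and 18.3 with it. Akt1, whose probe set need not detect the introduced form, had an intensity of 112 in control cells and 71.6 in Akt cells without LIF, and 77.8 and 71 with LIF, so no higher Akt1 signal was seen in Akt cells. The Y-linked translation factor gene Eif2s3y separated the lines in both media, at 135 and 84.1 in control cells with and without LIF and at 16.5 and the floor in Akt cells. Uty, another Y-linked gene, was above the floor only in control cells with LIF, at 37.1. The part of such a difference between the lines in the other results was not tested. In such bulk samples, fewer cells of a type and less RNA per cell cannot be told apart.

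Without LIF, 353 of 6009 genes that cleared the floor on either array were 2-fold or more higher in Akt cells (5.87%), and 488 were 2-fold or more lower (8.12%), which is 14% in all. Of these genes, 73 higher and 98 lower ones were at the floor on 1 array. Counted by probe set, 447 of 7991 were higher (5.59%) and 627 lower (7.85%). The median log2 difference of all genes was 0.06, and the middle 80% lay between -0.84 and 0.80. Different probe sets of 1 gene spread around their mean with an SD of 0.41 in log2 over 815 genes, which is the error available here and covers probe sets, not cultures. At the edge of the 2-fold rule, the cyclin gene Ccne1 was just inside at 185 and 370.4, and Bzw2 just outside at 502 and 1003. Higher genes made up 42.0% of the 841 different genes (exact binomial 95% interval 38.6 to 45.4%, counting error only). The interval treats genes as independent draws, which they are not, and does not cover cultures or processing. The share depends on the scaling, since with intensities as deposited it was 18.8% and the median of all genes was -0.23.

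**Figure D1:**
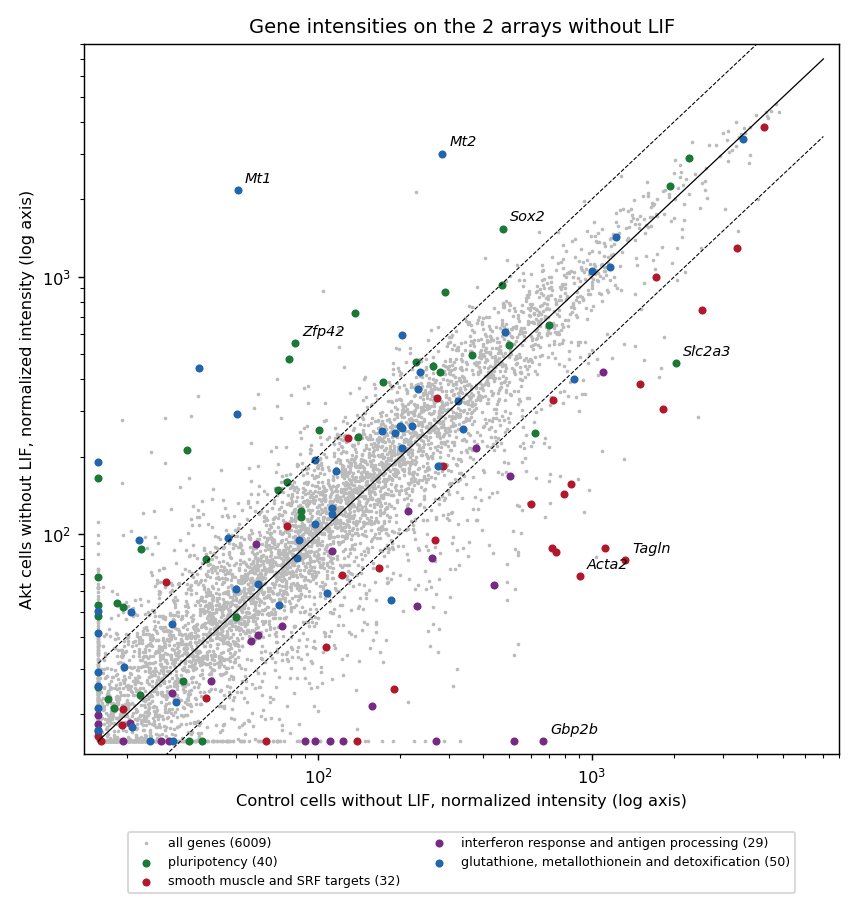
Normalized intensity of 6009 genes in control cells (x axis, log) and Akt cells (y axis, log) after 4 days without LIF, with members of 4 gene lists in colour, the solid line at equality and the dashed lines at 2-fold. Mt1 and Mt2 lie far above the line, Tagln and Acta2 far below it, and Gbp2b lies on the floor of 15.8 in Akt cells.

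The gene furthest above the line was Mt1, a metallothionein that binds zinc and other metals, at an intensity of 50.9 in control cells and 2172 in Akt cells, which is 42.7-fold higher. Next came Ptch1, the hedgehog receptor (19.2 and 277, 14.4-fold), although its other probe set had a log2 difference of 0.08. Gsta4, a glutathione transferase, stood at 36.9 and 443 (12-fold), and Mt2, the partner of Mt1, at 284 and 3004 (10.6-fold). The other genes among the 12 highest measured on both arrays were of mixed function. They were the ribosomal protein paralog gene Rpl39l (10.3-fold), the DNA methyltransferase gene Dnmt3a (9.38-fold), the mitochondrial gene Chchd10 (9.33-fold), Cpt1a, which brings fatty acids into mitochondria (8.49-fold), the homeobox gene Rhox5 (8.43-fold), the lysine catabolism gene Aass (8.34-fold), the actin regulator gene Twf2 (8.22-fold) and the germ cell gene Tex19.1 (6.81-fold). Among genes at the floor in control cells the largest bounds were those of Cbr3, Nr0b1, Pipox, Myb, Lama1 and Inpp5d. Their intensities in Akt cells were 191, 165, 112, 99.6, 92.3 and 83.6, and the bounds ran from 5.3-fold to 12.1-fold. A second probe set of Inpp5d had a log2 difference of -0.07.

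The gene furthest below the line among those measured on both arrays was Tagln. It encodes the smooth muscle actin-binding protein transgelin and had an intensity of 1318 in control cells and 79.5 in Akt cells, 16.6-fold lower. Wls, the carrier that Wnt ligands need for secretion, followed at 517 and 34.1 (15.2-fold). Phldb2 (14.4-fold), Acta2 (13.1-fold), the annexin gene Anxa3 (12.7-fold), Acta1 (12.6-fold), the ligand gene Wnt6 (12.1-fold), the macrophage growth factor gene Csf1 (10.7-fold), the desmosomal cadherin gene Dsc2 (9.58-fold), Sfn, which encodes 14-3-3 sigma (8.79-fold), Lpp (8.7-fold) and S100a6 (8.56-fold) completed the 12 lowest. For genes at the floor in Akt cells, bounds are given. The interferon-inducible guanylate-binding protein genes Gbp2b and Gbp2 stood at 662 and 518 in control cells, at least 42-fold and at least 32.8-fold above the floor. Tgfb1, a growth factor of the transforming growth factor beta family, stood at 329 (at least 20.9-fold), the serine protease gene Tmprss2 at 288 (at least 18.3-fold), Gbp3 at 269 (at least 17.1-fold) and the endothelin gene Edn1 at 247 (at least 15.6-fold). Of 33 other measured probe sets for the 2-fold genes that the rule for named genes picks, 27 had the same sign, 19 of them also past 2-fold, and 6 the opposite sign.

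The pair of arrays with LIF compares the same lines and shares no array with the pair without LIF. With LIF, fewer genes passed 2-fold, 208 higher (3.5%) and 216 lower (3.64%) of 5938. Counts of list members below stand beside these shares with LIF, and beside 5.87% higher and 8.12% lower without it. Of 5689 genes that could be compared in both media, 349 were higher without LIF and 201 with LIF, and 45 were higher in both, which is 12.9% of the former and 22.4% of the latter. For lower genes the counts were 442, 212 and 83, or 18.8% and 39.2%. Genes lower without LIF had a negative difference with LIF in 71.5% of cases, where 49.6% of all genes did, and genes higher without LIF had a positive one in 59.9% of cases, where 50.3% of all genes did. Across the same 5027 genes as above, Pearson's r between the differences was 0.20 and Spearman's rho 0.10. The points are genes and not independent replicates, and each pair carries the same difference between the lines.

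**Figure D2:**
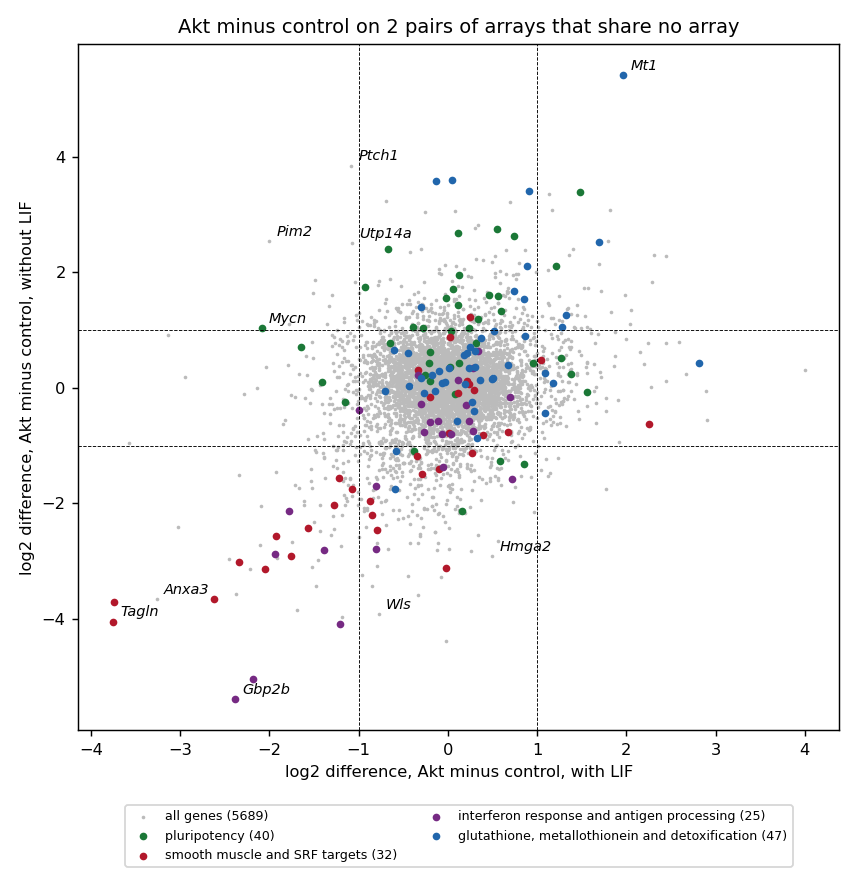
Log2 difference, Akt minus control, with LIF (x axis) and without LIF (y axis) for 5689 genes, with members of 4 gene lists in colour and dashed lines at 2-fold. Tagln and Gbp2b lie in the lower left and Mt1 in the upper right, while Wls passes 2-fold only without LIF, and Ptch1 and Pim2 are high without LIF and low with it.

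What the lines differed in over both media was fitted with limma, with line and LIF as additive terms and 1 residual degree of freedom. At an adjusted p under 0.05, 10 of 6258 genes were higher in Akt cells (0.16%) and 29 lower (0.463%). All 39 were at least 2-fold different in the same direction in each medium. The fit favours such genes, since its error is the disagreement between the media, so that agreement is no separate support. The lowest adjusted p was that of Tagln (0.00164) and Acta2 (0.00164), with log2 differences of -4.05 and -3.71 without LIF and -3.75 and -3.74 with it. Anxa3 (adjusted p 0.00253), Acta1 (0.0109), the cadherin gene Cdh2 (0.0121), Sfn (0.0153), Gbp2b (0.0235) and Irgm1 (0.0235) were also lower. Higher were Aard (0.0183), Cubn (0.0183), Cpt1a (0.0262), Lama1 (0.0287), Akr1b8 (0.034), Mt1 (0.0444), Nr0b1 (0.0487) and the Notch ligand gene Dll1 (0.0487). The error behind these p-values is how far a gene's line difference changed between the media, pooled with that of other genes. It measures no spread between cultures. The Akt array with LIF was at the floor for Acta2, Cdh2 and Irgm1, so the fit used the floor there and -3.74 is a limit. The Y-linked gene Eif2s3y was also among the 29 lower genes, with a line difference of -2.72 in log2. The Akt array without LIF was at the floor for Eif2s3y. The control array was at the floor for Cubn with LIF and for Lama1, Nr0b1 and Dll1 without it. The count was unstable, being 0 when arrays were scaled to the hybridization controls, again 0 when the floor was raised to the 60th percentile, and 186 with a pseudocount in place of the floor.

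Genes of the pluripotency network were higher in Akt cells without LIF more often than lower. Of 40 measured members, 19 were 2-fold higher and 4 lower, where 5.87% and 8.12% of all genes were, and the median log2 difference was 0.88, against 0.06 for all genes. Zfp42, also called Rex1 and a classical marker of the undifferentiated state, stood at 82.4 in control cells and 553 in Akt cells (6.71-fold higher), against 1219 and 1784 with LIF. The lines were closer to each other with LIF, and the control array without LIF was the low one. The same order held for Fbxo15 (33.2 and 212 without LIF, 651 and 704 with it), a target of the core factors. Fgf4, a growth factor gene under direct control of Sox2 and Oct4, had 78 and 481 without LIF and 403 and 674 with it. Sox2 itself, a core transcription factor, had 472 and 1538 (3.26-fold) without LIF and 2239 and 2329.7 with it. Utf1, a chromatin-bound factor of undifferentiated cells, stood at 137 and 723 (5.29-fold), although with LIF the Akt array was the lower one (741 and 464).

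The best known regulators differed less. Pou5f1, which encodes Oct4, stood at 264 and 452, a log2 difference of 0.78. Nanog stood at 697 and 647 (-0.11, with another probe set at 0.32), and Klf4 at 86.4 and 117 (0.44). None of these reached 2-fold, and the differences of Nanog and Klf4 lie close to the spread of probe sets. Other members past 2-fold were Nr0b1, an orphan receptor gene of stem cells (at least 10.5-fold), Klf2 (at least 4.31-fold), Gbx2 (at least 3.36-fold), Tcf15 (3.88-fold), Dppa2 (3-fold), Nr5a2 (2.94-fold), Phc1 (2.27-fold), Tdgf1, a co-receptor for Nodal (2.07-fold), and Gdf3 (2.06-fold). The members lower in Akt cells were Slc2a3 (4.4-fold), a glucose transporter gene, Klf5 (2.49-fold), Mras (at least 2.4-fold) and Prdm1 (at least 2.15-fold). Esrrb was at the floor on all 4 arrays, those with LIF included, so its probe set showed nothing about either line. With LIF the median of the list was 0.11, with 5 of 40 members 2-fold higher and 4 lower, beside 3.5% and 3.64% of all genes. Only Nr0b1 of this list was called for the line over both media.

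The LIF receptor and JAK-STAT3 list leaned the other way. Of 27 members, 10 were 2-fold lower and 4 higher, beside 8.12% and 5.87% of all genes, and the median was -0.28. Lifr, the ligand-binding receptor chain, was higher in Akt cells (29 and 64.8, 2.24-fold), while Il6st, the shared signalling chain gp130, was lower (54.8 and 25.4, 2.16-fold). The kinase gene Jak2 stood at 62.2 and 19.6 (3.16-fold lower) and Tyk2 at 54.8 and 26.9 (2.04-fold). Stat3 itself was level, at 109 and 106. Socs3 encodes an inhibitor through which STAT3 limits its own pathway, and it was low on both arrays, 50.7 in control cells and 24.4 in Akt cells, against 262 and 181 with LIF. Its level in Akt cells without LIF was thus the lowest of the 4 arrays. Bcl3, another STAT3 target, was at the floor in Akt cells and 41.9 in control cells without LIF, against 137 and 128 with LIF. Socs1 (2.63-fold), Ier3 (3.2-fold), Junb (2.51-fold) and Pim3 (2.18-fold) were also lower in Akt cells, and Socs2 was higher (2.25-fold). The kinase gene Pim2 stood at 60.4 and 350.0 without LIF (5.8-fold higher) and at 241 and 60.2 with LIF, where the Akt array was the lower one. The difference between the media was not tested.

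Of 24 PI3K-Akt pathway genes, 2 were 2-fold higher and 3 lower, beside 5.87% and 8.12% of all genes, and the median of 0.10 turned negative in 3 of the alternatives. Igf1r, the receptor for insulin-like growth factors, stood at 263 and 52.2 (5.03-fold) and was called for the line (adjusted p 0.0487 by limma). The adaptor gene Irs2 stood at 138 and 24.8 (5.56-fold), and Ilk, the integrin-linked kinase gene, at 396 and 104 (3.8-fold). The docking protein gene Gab1 was higher (187 and 462, 2.47-fold), as was Inpp5d, a lipid phosphatase gene, with the disagreement between probe sets given above. Tcl1, which encodes a coactivator of Akt, was low on both arrays at 17.1 and 22.9, against 103 and 200.3 with LIF.

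Targets of FOXO factors went both ways, 3 of 23 higher and 4 lower, beside 5.87% and 8.12% of all genes. Their median of 0.01 changed sign under 4 of the alternatives. Higher in Akt cells were Klf2, the mitophagy receptor gene Bnip3 (24.8 and 83.6, 3.38-fold) and the stress gene Sesn1 (2.37-fold). The lower ones were Gadd45b (490.1 and 76.8, 6.38-fold), Irs2, Cited2 (3.25-fold) and Klf6 (2.68-fold). Txnip, a thioredoxin inhibitor gene that FOXO factors induce, stood at 108 and 59.3 (-0.86), while its other probe set had 0.12.

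The smooth muscle and serum response factor (SRF) list held the lowest median of the 30 lists, -1.45. SRF is a transcription factor that switches on actin, myosin and actin-binding genes through CArG boxes in their promoters, and does so when actin monomers are depleted. Of 32 members, 19 were 2-fold lower in Akt cells and 1 higher, the myosin light chain gene Myl4 (2.35-fold). Smooth muscle alpha-actin, Acta2, stood at 904 in control cells and 69 in Akt cells without LIF, and at 211 and the floor with LIF. Skeletal alpha-actin, Acta1, stood at 1114 and 88.2 without LIF and at 99.7 and 16.2 with it. Tagln stood at 273 and 20.2 with LIF. The Akt array was therefore the lower of the pair in both media for these 3 genes.

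Among other actin-binding genes, the calponin gene Cnn2 stood at 718 and 88.8 (8.08-fold lower), and Cnn1 at 64.8 and the floor (at least 4.1-fold). The tropomyosin gene Tpm1 stood at 1814 and 307 (5.92-fold) and Tpm4 at 2519 and 743 (3.39-fold). Vinculin, Vcl, which links actin to adhesions, stood at 1494 and 384 (3.9-fold), and alpha-actinin, Actn1, at 3394 and 1287 (2.64-fold). Cardiac actin, Actc1 (5.48-fold), the LIM protein genes Fhl1 (5.37-fold), Csrp1 (4.59-fold) and Fhl2 (2.94-fold), Lpp (8.7-fold), the matricellular gene Ccn1 (7.56-fold), myosin light chain Myl9 (at least 8.8-fold) and non-muscle myosin Myh9 (2.82-fold, with another probe set at 0.73) were lower too. Of the abundant cytoplasmic actins, Actb had a log2 difference of 0.31, with another probe set at 1.70, and Actg1 of -0.15. With LIF, 11 of 32 members were 2-fold lower and 2 higher, beside 3.64% and 3.5% of all genes. Of the list, 8 were called lower for the line over both media by limma.

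The 300 bases around the start of each gene, from RefSeq on GRCm38.p6 (250 before and 50 after the annotated start), were searched for a CArG box. It was found in 7 of 17 lower members with a promoter in that table, in 1 of 10 other members and in 1.63% of all 32851 promoters. The list was drawn up as SRF targets, so a share above that of all promoters follows from its choice. List members were counted by 1 promoter a gene, and all promoters by entry. Tagln and Acta2, which lay lower than Acta1 and Cnn2, were not among the 7. The motif reads the same on either strand. The promoters of Acta1 (chr8:123894726-123895025, minus strand) and Cnn2 (chr10:79988350-79988649, plus strand) are shown because both genes were among the lowest of the list and hold 1 box each, in capitals, starting 73 and 56 bases before the start. The genes were chosen after their values were seen, and a match is a description and not a site shown to be used.
Acta1: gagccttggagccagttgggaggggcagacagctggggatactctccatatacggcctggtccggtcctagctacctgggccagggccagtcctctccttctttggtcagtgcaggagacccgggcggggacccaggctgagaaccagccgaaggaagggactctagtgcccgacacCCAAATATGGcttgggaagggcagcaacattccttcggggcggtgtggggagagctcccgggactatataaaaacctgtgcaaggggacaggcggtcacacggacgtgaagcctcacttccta
Cnn2: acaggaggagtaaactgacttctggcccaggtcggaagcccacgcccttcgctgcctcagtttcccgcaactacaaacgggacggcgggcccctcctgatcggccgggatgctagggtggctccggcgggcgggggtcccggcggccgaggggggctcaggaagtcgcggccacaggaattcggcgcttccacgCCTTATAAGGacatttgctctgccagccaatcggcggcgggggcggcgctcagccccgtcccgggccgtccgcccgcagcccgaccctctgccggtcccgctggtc

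Primitive streak and mesoderm genes were lower in Akt cells in 13 of 28 cases and higher in 1, with a median of -0.90. Some of these are the actins and Tagln already named, since lists share members. Of signalling genes of the streak, Wnt3 stood at 376 and 114 (3.31-fold lower), Bmp4 at 537 and 85.5 (6.28-fold), and Fgf8 at 39.2 and the floor (at least 2.48-fold). Bmp4 was the higher one in Akt cells with LIF, at 243 and 357. Among transcription factor genes, Evx1 stood at 122 and the floor (at least 7.73-fold), Eomes at 55.8 and 18.9 (2.95-fold), Msx1 at 303 and 56.9 (5.33-fold) and Msx2 at 102 and 29.3 (3.5-fold). Twist1 (2.61-fold) and Snai1 (2.32-fold), which act in the change from epithelium to mesenchyme, were lower, and so was the vascular receptor gene Flt1 (at least 4.34-fold). Evx1 and Fgf8 were at the floor on all arrays but that of control cells without LIF.

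Trophoblast and simple epithelium genes were lower in 13 of 32 cases and higher in none, with a median of -0.63. The keratins of simple epithelia were lower, Krt8 standing at 768 and 168 (4.56-fold), Krt18 at 627 and 165 (3.79-fold) and Krt19 at 538 and 83.2 (6.46-fold). Dsp, which anchors keratins at desmosomes, stood at 1308 and 195 (6.7-fold). The epithelial genes Anxa3 and Sfn led the list, Sfn at 488 and 55.5. The transcription factor genes Tfap2a (89, at least 5.64-fold) and Gata3 (53.7, at least 3.4-fold) were at the floor in Akt cells, as was Emp1 (at least 6.88-fold). The junction gene Cldn7 stood at 146 and 51.1 without LIF (2.86-fold) and at 79.9 and the floor with it. Lgals3 had the reverse order with LIF (157 and 536) of that without (380.1 and 113). Anxa3, Sfn and Cldn7 were called lower over both media. Cdx2, a trophoblast factor gene, was near the floor at 17.9 in control cells.

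**Figure D3:**
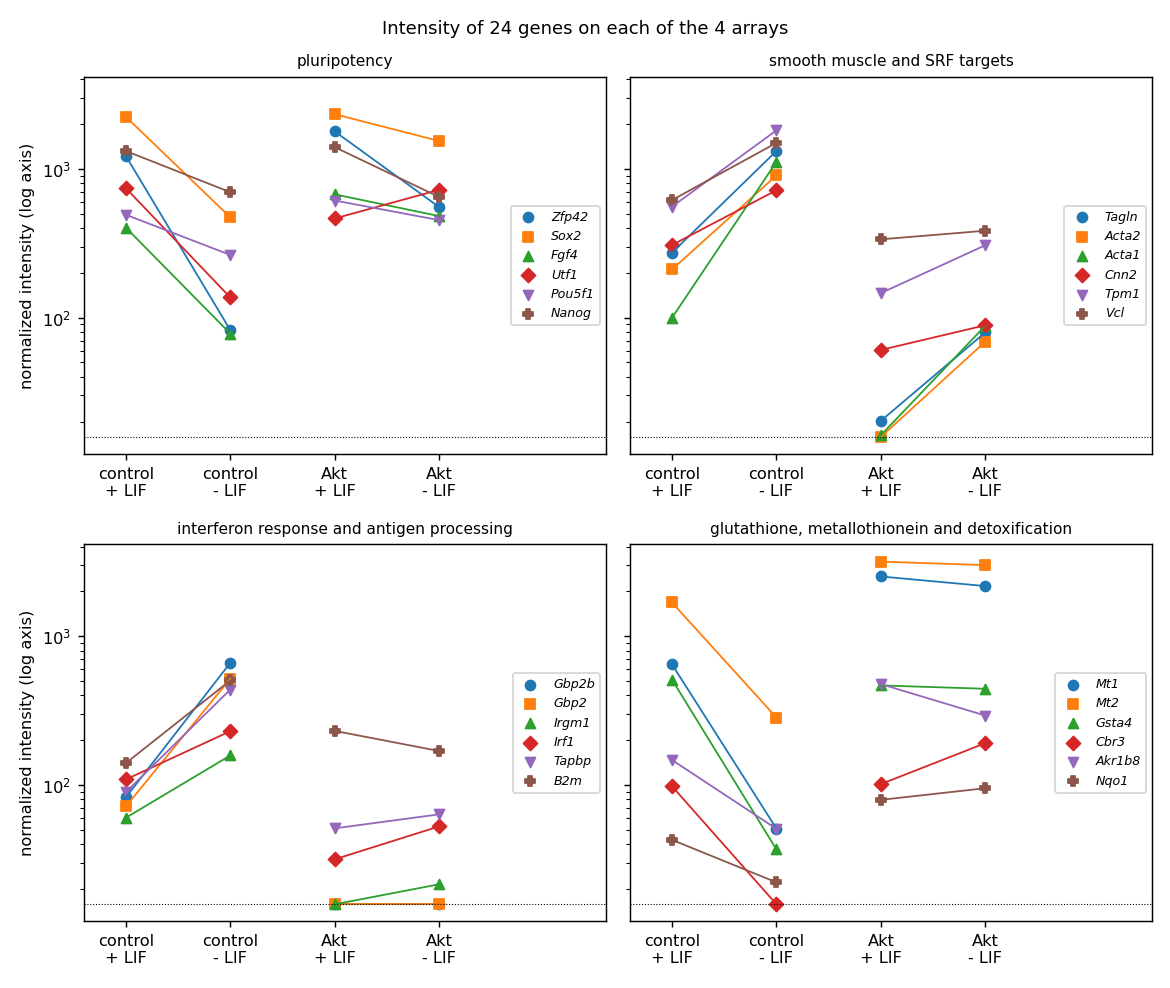
Normalized intensity (log axis) of 24 genes on each of the 4 arrays, in 4 panels by gene list, the dotted line being the floor of 15.8 and lines joining the arrays of 1 cell line with and without LIF. In the pluripotency panel control cells without LIF are low for Zfp42, Sox2, Fgf4 and Utf1, while in the smooth muscle panel both Akt arrays lie under both control arrays for Tagln, Acta2, Acta1, Cnn2, Tpm1 and Vcl.

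Genes of the matrix and of fibroblasts were lower in part. Of 47 extracellular matrix and adhesion genes, 15 were lower and 2 higher (median -0.34), and of 30 fibroblast and feeder genes 7 and 2 (median -0.21). Dcn, the proteoglycan decorin, stood at 153 in control cells and at the floor in Akt cells (at least 9.68-fold), and Col3a1, a collagen of loose connective tissue, at 71.7 and the floor (at least 4.54-fold). Col1a1 stood at 112 and 42 (2.66-fold), while Col1a2 stood at 177 and 161. Postn was at the floor throughout and Lum at or barely above it. The basement membrane gene Hspg2 (4.56-fold), fibronectin Fn1 (2.1-fold) and the integrins Itgb1 (2.1-fold) and Itgav (2.15-fold, with another probe set at -0.08) were lower. So were the proteases Mmp9 (at least 7.85-fold) and Mmp14 (2.1-fold) and the protease inhibitor gene Timp3 (3.65-fold). Lama1, the laminin chain of the embryonic basement membrane, and Itgb4 (2.02-fold) were the higher matrix members. The higher fibroblast and feeder members were Sfrp1 (at least 3.36-fold) and Fbln1 (2.2-fold). The marker Thy1 was higher but under 2-fold, at 27.6 in control cells and 47.7 in Akt cells. The part of the fibroblast markers in the lower matrix, mesoderm and smooth muscle genes was not tested.

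In the BMP and TGF-beta list 10 of 36 members were lower and 2 higher, and the list's median was -0.37. The ligands Tgfb1, Tgfb2 and Bmp4 were all lower, Tgfb2 standing at 89.1 and the floor (at least 5.65-fold). Tgfb1 was near or at the floor on the other 3 arrays, at 16 in control cells with LIF. The inhibitory Smad genes Smad6 (123 and 32.9, 3.72-fold) and Smad7 (269 and 116, 2.31-fold) and the target Id2 (2178 and 1039, 2.1-fold) were lower as well. Other BMP targets were near level, Id1 with a log2 difference of 0.05 and Id3 of 0.51. Gdf3 and Skil were the higher members, at 2.06-fold and at least 2.16-fold.

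Wnt genes that differed were mostly ligands. Of 29 ligand and secretion genes, 6 were lower and 2 higher, beside 8.12% and 5.87% of all genes, and the list's median was -0.30. Wnt6 stood at 311 and 25.8, Wnt4 at 224 and the floor (at least 14.2-fold), Wnt10a at 94.3 and 25.3 (3.73-fold) and Wnt5b at 44.9 and 18.2 (2.47-fold). With Wls and Wnt3 these made up all lower members. The secreted antagonist genes Sfrp1 (53 in Akt cells, at least 3.36-fold) and Sfrp2 (59.9 and 133, 2.22-fold) were the higher ones. Targets of beta-catenin were measured in 14 cases, 3 lower and 1 higher, beside 8.12% and 5.87% of all genes. These targets included Ccn4 (4.64-fold lower), while Axin2, the most general target, stood at 21.4 and 21.8 and Ccnd1 had a log2 difference of 0.48.

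Notch and hedgehog genes went in both directions, 4 of 23 higher and 2 lower, beside 5.87% and 8.12% of all genes. Of hedgehog members, Ptch1 was higher by 1 of its probe sets, as given above, and the transcription factor gene Gli1 stood at 61.9 against the floor (at least 3.92-fold). Both are targets of the pathway. The ligand gene Dhh had a log2 difference of -0.21. With LIF, Gli1 stood at 56.8 and 53.8, so the array of control cells without LIF was the low one. The Notch ligand gene Dll1 stood at 47.8 in Akt cells and the floor in control cells without LIF and at 19.4 and 76.8 with it, and the regulator Dtx1 was 2.55-fold higher. The Notch target Hes1 stood at 586 and 132 (4.43-fold lower) without LIF and at 53.7 and 105 with it, and the receptor gene Notch2 was 2.91-fold lower.

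Immediate early and ERK target genes were lower in 11 of 28 cases and higher in none, with a median of -0.52. Atf3 stood at 252 and 86.9 (2.9-fold), Phlda1 at 675 and 116 (5.8-fold) and the ERK phosphatase gene Dusp6 at 469.8 and 171 (2.75-fold). Junb, Jun (2.1-fold), Ier3, Klf6, Plaur (3.7-fold) and Zfp36 (2.64-fold) were also lower. Fos and Egr1 stayed under 2-fold, with log2 differences of -0.63 and 0.48. With LIF the list had a median of 0.24.

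Interferon response and antigen processing genes were lower in Akt cells in 13 of 29 cases and higher in none, with a median of -0.80. Interferons induce these genes, and many serve defence inside the cell or the loading of peptides on class I molecules. Gbp2b stood at 662 in control cells without LIF, at 82.5 in control cells with LIF and at the floor on both Akt arrays. Gbp2 had the same order, with 518, 71.7 and the floor on both Akt arrays. The immunity GTPase gene Irgm1 stood at 158 and 21.5 without LIF (7.34-fold) and at 60.2 and the floor with it. The regulator Irf1 stood at 229.8 and 52.7 without LIF (4.36-fold) and at 109 and 31.6 with it. The Akt array was the lower one in both media for these 4 genes, and limma called all 4 lower over both media, with adjusted p of 0.0235, 0.0262, 0.0235 and 0.0357. For Gbp2b and Gbp2 that fit used the floor in place of both Akt values.

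Of the peptide-loading members, Tapbp, the tapasin gene, stood at 438 and 63.5 (6.9-fold, with other probe sets at -0.48 and -1.13). The immunoproteasome gene Psmb8 stood at 110.2 and the floor (at least 6.99-fold), Psme1 at 261 and 80.8 (3.23-fold) and B2m, the light chain of class I molecules, at 504 and 169 (2.98-fold). With LIF, B2m had the reverse order at 140.2 and 231. The class I gene H2-K1 stayed under 2-fold at 378 and 217, with other probe sets at -1.18 and -0.24. The transporter gene Tap1 was on the other side at 59.2 and 92.1. The chemokine gene Cxcl10 (123, at least 7.81-fold), Isg15 (89.8, at least 5.69-fold) and Iigp1 (97.9, at least 6.2-fold) cleared the floor in control cells without LIF alone. Ifitm3 stood at 1098 and 425 (2.58-fold). No member was 2-fold higher in Akt cells in either medium.

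The interferon-stimulated response element, searched as GAAANNGAAA on both strands, was found in the 300-base promoters of 9 of 12 lower members. It was also found in 3 of 14 other members and in 3.44% of all promoters. The list was drawn up as interferon response genes, so a share above that of all promoters follows from its choice. The promoters of Gbp2b (chr3:142594597-142594896, plus strand) and Gbp2 (chr3:142620413-142620712, plus strand) are shown because these genes had the largest bounds of the comparison. Each holds 1 match, on the opposite strand, in capitals, starting 137 and 59 bases before the start. Both were chosen after their values were seen.
Gbp2b: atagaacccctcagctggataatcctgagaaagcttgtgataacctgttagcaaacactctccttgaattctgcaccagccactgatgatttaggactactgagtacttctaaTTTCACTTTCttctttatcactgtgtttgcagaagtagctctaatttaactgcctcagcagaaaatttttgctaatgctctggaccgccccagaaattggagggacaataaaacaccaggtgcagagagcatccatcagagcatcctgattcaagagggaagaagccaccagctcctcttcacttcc
Gbp2: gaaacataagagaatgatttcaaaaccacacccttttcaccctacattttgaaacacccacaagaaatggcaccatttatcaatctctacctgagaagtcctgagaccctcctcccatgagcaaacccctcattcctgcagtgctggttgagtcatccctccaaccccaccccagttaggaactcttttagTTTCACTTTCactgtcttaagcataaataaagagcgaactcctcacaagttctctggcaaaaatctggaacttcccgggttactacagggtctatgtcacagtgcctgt

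Genes of metal binding, glutathione and detoxification were among the highest. Of 50 members, 11 were 2-fold higher in Akt cells and 2 lower, with a median of 0.31. Metallothioneins are induced by the metal-sensing factor MTF1, and glutathione transferases and reductases are known targets of NRF2. Mt1 stood at 50.9 and 2172 without LIF and at 647 and 2519 with LIF, so that the Akt array was the higher one in both media and control cells without LIF were lowest. Mt2 followed that order, at 284 and 3004 without LIF and at 1685 and 3171 with it. Gsta4 did not, since both lines were alike with LIF (511 and 467) and only control cells without LIF were low.

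The carbonyl reductase gene Cbr3 stood at the floor and 191 (at least 12.1-fold), the aldo-keto reductase gene Akr1b8 at 50.7 and 293 (5.77-fold) and the quinone reductase gene Nqo1 at 22.1 and 95.1 (4.29-fold). The transferase genes Gstt2 (at least 3.19-fold), Gstp1 (203 and 591, 2.91-fold) and Gstt1 (at least 2.63-fold), the sulfiredoxin gene Srxn1 (2.4-fold) and the aldehyde dehydrogenase gene Aldh3a2 (2.06-fold) made up the rest. Not all transferases went this way, since Gstm1 stood at 857 and 400.3 (2.14-fold lower) and Gstm3 at 185 and 55.4 (3.35-fold lower, with another probe set at 0.28). The NRF2 targets Hmox1 and Gclm had log2 differences of 0.26 and 0.66. Akr1b8 and Mt1 were called for the line over both media.

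The metal response element, searched as TGCACNC or TGCGCNC on both strands, was found in 5 of 9 higher members with a promoter in the table, in 10 of 33 others and in 25.7% of all promoters, so it is common. The promoters of Mt1 (chr8:94178839-94179138, plus strand) and Mt2 (chr8:94172368-94172667, plus strand) are shown because Mt1 was the highest gene of the comparison and the pair are neighbours on the chromosome. They hold 3 and 4 matches, in capitals.
Mt1: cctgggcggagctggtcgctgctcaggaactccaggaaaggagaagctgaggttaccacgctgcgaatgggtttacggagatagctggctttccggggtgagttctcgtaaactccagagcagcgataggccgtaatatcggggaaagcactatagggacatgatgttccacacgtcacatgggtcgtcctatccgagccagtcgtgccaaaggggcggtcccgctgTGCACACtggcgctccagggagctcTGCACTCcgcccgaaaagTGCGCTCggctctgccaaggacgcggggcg
Mt2: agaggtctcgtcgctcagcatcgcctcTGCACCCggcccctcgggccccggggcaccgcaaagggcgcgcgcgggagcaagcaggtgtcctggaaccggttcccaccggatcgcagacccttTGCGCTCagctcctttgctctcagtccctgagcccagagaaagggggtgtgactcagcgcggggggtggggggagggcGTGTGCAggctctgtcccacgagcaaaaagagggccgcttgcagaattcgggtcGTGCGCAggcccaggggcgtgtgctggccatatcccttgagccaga

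Of 26 primitive and visceral endoderm genes, 4 were higher and 2 lower without LIF, beside 5.87% and 8.12% of all genes, with a median of -0.02. With LIF 10 of 26 were higher and 0 lower, beside 3.5% and 3.64% of all genes, with a median of 0.61. The endocytic receptor gene Cubn stood at 20.8 and 103 (4.94-fold higher), but another probe set gave -0.33. Lama1, Sox17 (17.3 and 42.7, 2.47-fold) and Srgn (40 in Akt cells, at least 2.54-fold) were higher, and Lrp2 (2.76-fold) and Cited1 (2.64-fold) lower. The transcription factor genes Gata4 (55.2 and 47.7) and Gata6 (floor and 19.2) stayed under 2-fold. Whether the difference of the endoderm list between media exceeds the error was not tested.

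Among epiblast and formative genes, 4 of 21 were higher and 6 lower, beside 5.87% and 8.12% of all genes. Dnmt3a, which lays down new DNA methylation, stood at 36.6 and 343 without LIF and at 206 and 127 with it. Pim2, Utf1 and Tdgf1 were the other higher members. Hmga2, a chromatin protein gene, stood at 491 and 65.2 (7.53-fold lower), Cdh2 at 274 and 35 (7.81-fold), Sox11 at 601 and 219.7 (2.74-fold) and Sox4 at 297 and 119.8 (2.48-fold). Fgf5, the usual marker of the post-implantation epiblast, was at the floor on both arrays. Sox3 was 2.14-fold lower.

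Neuroectoderm genes were mixed as well, 5 of 22 higher and 3 lower, beside 5.87% and 8.12% of all genes. Crmp1 (29.1 and 125, 4.3-fold), which acts in axon guidance, the neurofilament gene Ina (124 and 444, 3.57-fold) and the midbrain gene En2 (2.69-fold) were higher with Dll1 and Gbx2. Nestin, Nes (2.64-fold), was lower with Cdh2 and Sox3.

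Of 49 chromatin and DNA methylation genes, 7 were higher and 3 lower, beside 5.87% and 8.12% of all genes. After Dnmt3a the higher ones were the deacetylase gene Hdac6 (2.86-fold), the demethylase gene Kdm5b (2.74-fold), the methyltransferase gene Ehmt2 (2.52-fold), the histone chaperone gene Daxx (2.49-fold), Cbx1 (2.39-fold) and Phc1. The maintenance methyltransferase gene Dnmt1 had a log2 difference of 0.40. Pcgf2 was 2.46-fold lower by 1 probe set and had a log2 difference of 1.03 by another, so no direction can be given. Imprinted genes were lower in 4 of 26 cases and higher in 1, beside 8.12% and 5.87% of all genes. The lower ones were Dcn, Ndn (3.33-fold), Peg3 (1833 and 583, 3.15-fold) and Gnas (2.26-fold), and the higher one Phlda2 (2.17-fold). Igf2 stood at 989 and 1442 without LIF and at 254 and 930.1 with it.

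Genes of growth and housekeeping functions shifted by small amounts. Of 53 ribosome biogenesis and translation factor genes, 47 lay above 0, with a median of 0.47 against 0.06 for all genes. Of these 53, 4 were 2-fold higher and 0 lower, beside 5.87% and 8.12% of all genes. Utp14a, a processome component gene, stood at 70.9 and 402 (5.66-fold), and Polr1e (2.27-fold), Eif2s2 (2.61-fold, with another probe set at -0.40) and Pes1 (2.01-fold) followed. Abundant members moved less, the nucleolar genes Ncl at 1587 and 2341 and Nop56 at 542 and 975. The median stayed above 0 under each alternative, between 0.22 and 0.53. With LIF it was -0.22. Ribosomal protein genes themselves had a median of 0.08 over 25 members, none past 2-fold, and no direction that held with intensities as deposited.

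Respiratory chain and ATP synthase genes lay above 0 in 39 of 49 cases, with a median of 0.27 and none past 2-fold. Chaperone genes did so in 25 of 31, with a median of 0.31. The median of all genes was itself above 0, at 0.06. Over the alternatives the 2 list medians fell as low as 0.03 and 0.02. Hsph1 was 2.02-fold higher, and the small heat shock gene Cryab (4.84-fold) and the collagen chaperone gene Serpinh1 (2.3-fold) were lower. Cell cycle genes had a median of 0.26 that was -0.03 with intensities as deposited, with 5 of 71 higher and 2 lower, beside 5.87% and 8.12% of all genes. Myb (at least 6.31-fold), Mybl2 (2.52-fold, with another probe set at -0.09), Ccnf (2.15-fold), Mycn (227 and 465, 2.05-fold) and Ccne1 were higher and Mycl (3.88-fold) and Rbl1 (2.65-fold) lower. The proliferation marker Mki67 stood at 234 and 182.

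Glycolysis and glucose transport genes had 2 of 30 members higher and 2 lower, beside 5.87% and 8.12% of all genes, with a median of 0.27. Pfkp, a phosphofructokinase gene (2.31-fold), and Pdk1, which restrains entry of pyruvate into mitochondria (2.29-fold), were higher, and Slc2a3 and Ldhb (2.68-fold) lower. Ldha stood at 2322 and 3330.0. In sterol and fatty acid synthesis, Scd1 (2.08-fold higher) was the only one of 30 members past 2-fold. The stress and ATF4 list had 4 of 34 higher and 3 lower, beside 5.87% and 8.12% of all genes. Among the higher were Gadd45g (3.71-fold), the serine synthesis gene Psat1 (491 and 1162, 2.37-fold) and the mTOR inhibitor gene Ddit4 (533 and 1108, 2.08-fold). Gadd45b, Atf3 and Stc2 (2.91-fold) were lower. With LIF that list had 12 of 36 members higher and 1 lower, beside 3.5% and 3.64% of all genes. Of 28 apoptosis genes, 2 were higher and 3 lower, again beside 5.87% and 8.12% of all genes. Bnip3 and Bid (2.13-fold) were higher, and Tradd (4.34-fold), Dapk3 (2.03-fold) and Bik (at least 2.02-fold) lower.

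**Figure D4:**
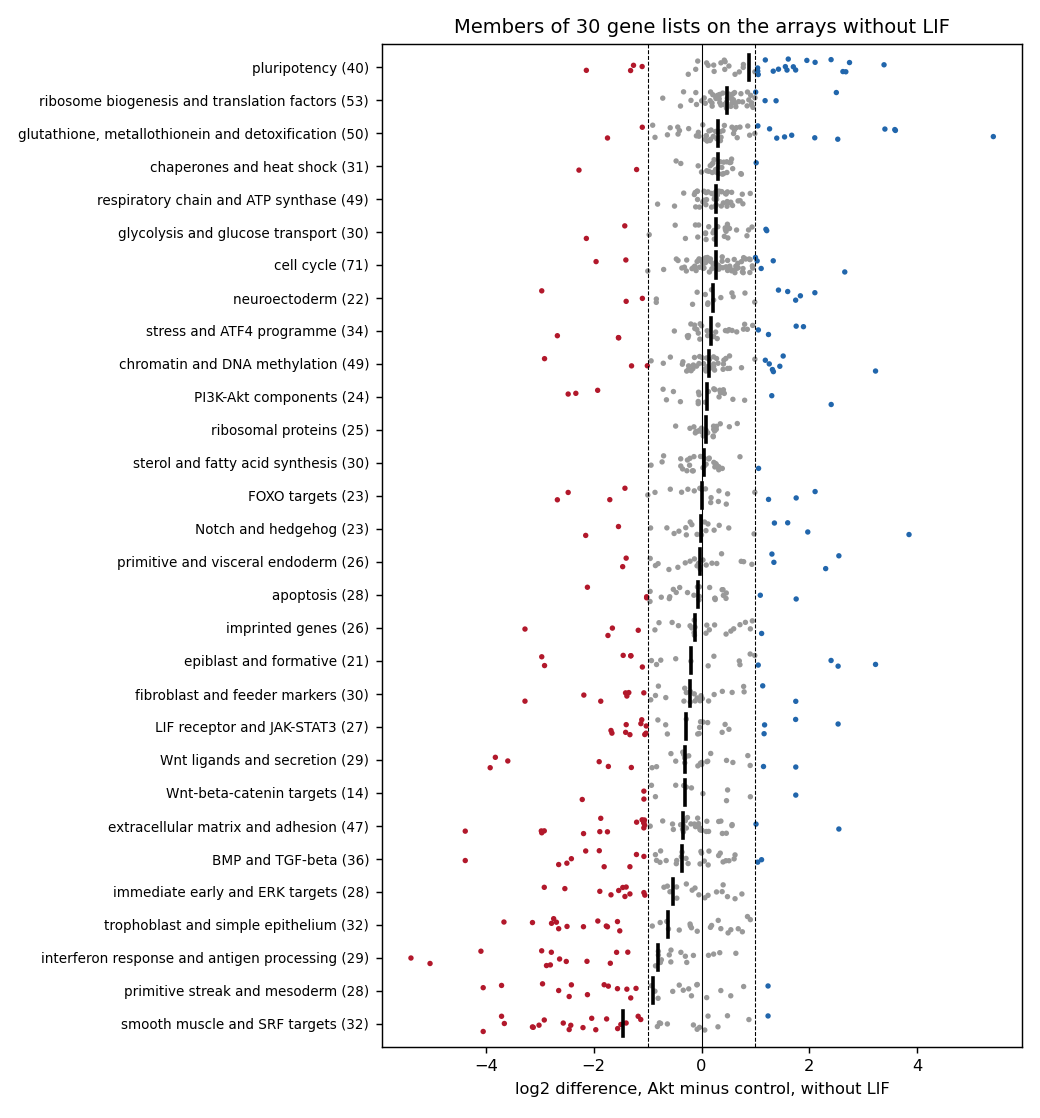
Log2 difference, Akt minus control, without LIF (x axis) for the measured members of 30 gene lists (rows, number of members in brackets), with points past 2-fold in colour, black bars at the list medians and dashed lines at 2-fold. The pluripotency list has the highest median, 0.88, and the smooth muscle and SRF list the lowest, -1.45.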

How the data were processed

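Total RNA of 4 samples was measured on Affymetrix arrays with 12488 probe sets. The authors deposited linear intensities in 1 table, and the sources used here give neither software nor scaling for them. After removal of 66 array controls, 12422 probe sets were quantile normalized over the 4 arrays with limma 3.58.1 in R 4.3.3, floored at 15.8 and put on the log2 scale. This makes distributions equal, so a shift common to most genes would be removed. The platform annotation gave 10833 probe sets 1 symbol, 396 several and 1193 none, and symbols were updated through RefSeq (GRCm38.p6). The probe set with the highest mean stood for its gene (2073 of 8251 genes had several). With 1 array a side no test is possible within the comparison, and differences of at least 2-fold were counted among genes above the floor on 1 or both arrays. The line over both media was fitted with limma (lmFit, eBayes with 8.69 prior degrees of freedom, two-sided, Benjamini-Hochberg). The number of arrays limits the precision. The steps were tested on simulated data with the noise of the closest pair of arrays. Changes were put into genes well above the floor and were alike in both media. Changes near the floor or in 1 medium alone were not simulated. Alternatives were 2 other floors, a pseudocount of 16, 3 other scalings of the 4 arrays, scaling of the pair alone, the mean of probe sets, plain probe sets only, genes above the floor on both arrays, a 3-fold threshold and, chosen after seeing the data, intensities as deposited.

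Genes named are the 12 highest and 12 lowest measured on both arrays, the 6 largest bounds each way, up to 5 members of each list past 2-fold each way, a set of known regulators and the 6 highest and 6 lowest genes called by limma. Further list members, marker genes and motifs were named after their values were seen. The comparison and the 30 gene lists were chosen with earlier results of these data known.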

Additional observations from a re-analysis of the deposited data

Results flagged for a closer look

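Of 5689 genes measured in both media, 16 went 2-fold higher in Akt cells without LIF and 2-fold lower with it, and 7 the other way. Among them are 6 genes that the rule for named genes picks and 3 other list members. For Ptch1, Pim2, Utp14a, Ina, Mycn and Ccne1 the Akt array was 2-fold or more higher than the control array without LIF and 2-fold or more lower with LIF. The difference between the media was not tested, since each group has 1 array. Ptch1, the hedgehog receptor gene, had a log2 difference of 3.85 without LIF and -1.08 with it, and its other probe set had 0.08 without LIF. Pim2, a kinase gene, had 2.53 and -2.00. Utp14a, of ribosome biogenesis, had 2.50 and -1.07. The neurofilament gene Ina had 1.83 and -1.04. The transcription factor gene Mycn had 1.03 and -2.09, and the cyclin gene Ccne1, at the edge of the 2-fold rule, had 1.001 and -1.25. The heterochromatin protein gene Cbx1 had 1.26 and -1.03. The galectin gene Lgals3 had -1.75 without LIF and 1.78 with it, and Snai1 had -1.22 and 1.23, the control array with LIF being at the floor for Snai1. These 3 were named after their values were seen.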

How the results depend on the processing

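The count of higher genes was 353, rising to 662 when the floor was the 20th percentile, and 189 with the 60th, 213 with a pseudocount of 16, 98 at 3-fold and 168 with intensities as deposited. The count of lower genes was 488, and 778, 312 and 199 with the floor at the 20th or 60th percentile and at 3-fold. The share of higher genes was 42.0%, and 46.0%, 37.7%, 36.0%, 33.0% and 18.8% with the floor at the 20th and 60th percentile, the pseudocount, 3-fold and intensities as deposited, which moved the median of all genes to -0.23. Other scalings kept that median between 0.03 and 0.07. The 39 genes called for the line became 17, 0, 11, 23, 0, 186, 3 and 135 with the floor at the 20th and 60th percentile, trimmed mean scaling, median scaling, scaling to the hybridization controls, the pseudocount, the mean of probe sets and genes above the floor on both arrays. The prior degrees of freedom of eBayes, estimated from the same arrays, changed with the setting too, from 3.95 under scaling to the hybridization controls to infinity with the pseudocount or with genes above the floor on both arrays. Of the 30 list medians, 9 changed sign under 1 or more alternatives: the cell cycle, chromatin, FOXO target, neuroectoderm, Notch and hedgehog, PI3K-Akt, ribosomal protein, sterol and stress lists. That of the interferon list was -1.29 with the floor at the 60th percentile. Cubn reversed to -0.33 with plain probe sets only. Pearson's r lay between 0.15 and 0.21. No paired analysis was possible because each group has 1 array and the labels give no replicate numbers.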
